A study of Homo sapiens with 10 samples.

Results

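The 34 genes described here are transcriptional targets of the tumour suppressor p53 together with inhibitors of cyclin-dependent kinases (CDKs). They were taken as a fixed list of gene symbols, and each symbol matched 1 of the 60623 gene identifiers in the count files. Of the 34, 32 had enough reads to be tested, among 18450 tested genes. The other 2, CDKN2B and SPATA18, were at or close to 0 reads in every library.

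Polyadenylated RNA of A375, a human melanoma cell line with mutant BRAF, was sequenced in 10 libraries from 2 experiments. In experiment 1, 4 libraries came from cells transfected with small interfering RNA (siRNA) against PHF10, a subunit of the PBAF chromatin remodelling complex, and 2 were controls. In experiment 2, 2 libraries are labelled as MYC knockdown and 2 are controls. The labels name no other engineered change in any group, and cells were collected 72 h after transfection. The protocol describes a control siRNA, whereas the sample labels of all 4 control libraries say that they had no siRNA treatment, so whether the controls were transfected could not be settled. The labels do not say what "total" means in the PHF10 titles, nor whether replicates were cultured separately, and p-values reflect the spread between libraries alone, which may be technical.

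When DNA is damaged or the cell is stressed, p53 escapes its ubiquitin ligase MDM2, binds response elements in DNA and switches on genes for arrest, repair, death and its own inhibition. The best-known arrest target is CDKN1A, whose product p21 inhibits cyclin-CDK complexes, keeps RB family proteins unphosphorylated and so lowers the genes of DNA replication and mitosis through E2F and the DREAM complex. The related CIP/KIP proteins p27 (CDKN1B) and p57 (CDKN1C) act on the same kinases, and the INK4 proteins p15 (CDKN2B), p18 (CDKN2C) and p19 (CDKN2D) act on CDK4 and CDK6. MYC is known as a repressor of several CDK inhibitor genes, and the study asked how PHF10 takes part in transcription driven by MYC.

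Reads assigned to genes numbered 20472465 to 38372289 per library, and levels are given as CPM, the reads of a gene per 1000000 gene reads after scaling between libraries. PHF10 mRNA was at 15.1 to 18.0 CPM in the 4 PHF10 knockdown libraries and at 40.1 and 36.6 CPM in their controls. MYC mRNA was at 16.7 and 13.3 CPM in the MYC siRNA libraries and at 14.9 and 26.5 CPM in their controls; the groups overlapped, so the label was not borne out by the mRNA of its target and these are called the libraries labelled MYC knockdown. SOX10, the neural crest factor of melanoma, was at 528 to 948 CPM in all libraries, while the pigment genes MLANA, TYR and DCT were at or near 0 (at most 1.44 CPM), as were the immune markers PTPRC and CD3E. Interferon-stimulated genes split experiment 1: their mean over 31 genes was 7.65 and 7.33 on the log2 CPM scale in PHF10 knockdown replicates 1 and 2 and 8.02 in control replicate 1, against 3.20 and 4.67 in knockdown replicates 3 and 4 and 4.52 in control replicate 2. The 3 libraries with the high mean also had more reads outside genes (12.1% to 13.8% of all reads against 9.93% to 10.6%). The part that this plays in the results below was not tested, beyond the values given within each of these 2 parts of experiment 1.

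Sequences before the annotated starts were searched for letters that match a p53 response element, and the letters of such matches are printed. The form searched was a pair of 10-base units with no spacer and at most 2 mismatches over its 20 bases. The search covered the 250 bases before each start of the RefSeq promoter table (GRCh38.p14). Elements elsewhere or with a spacer were not searched, so a member without a match may still hold one. Being palindromic in its rule, the form needs no separate search of the other strand. It was found in 197 of all 35116 windows (0.561%) and in 4 of the 40 windows of the 27 members in the table, which belong to MDM2, FAS and AEN. The table had no entry for TP53INP1, TNFRSF10B, PHLDA3, GADD45A, RRM2B, CDKN1C and TNFRSF10A. The 3 elements are in capitals below, 5′ to 3′, each on the plus strand, which is also the strand of the gene.
MDM2, chr12:68808893-68808972, in an intron, element 94 bases before an internal start: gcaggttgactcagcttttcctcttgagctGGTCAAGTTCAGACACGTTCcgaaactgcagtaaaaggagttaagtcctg
FAS, chr10:88991304-88991333, in an annotated exon, element 122 bases before a start: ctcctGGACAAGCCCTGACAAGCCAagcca
AEN, chr15:88621301-88621330, in an annotated exon, element 34 bases before a start: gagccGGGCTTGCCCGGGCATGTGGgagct
BTG2, the member with the clearest response in these data, held no element at 2 mismatches in its window. Its best match had 5, a level that 64.5% of all windows reach, and lay wholly in exonic bases. The window is shown in lower case throughout, without its exonic bases, so that best match is not among the printed letters.
BTG2, chr1:203305269-203305490: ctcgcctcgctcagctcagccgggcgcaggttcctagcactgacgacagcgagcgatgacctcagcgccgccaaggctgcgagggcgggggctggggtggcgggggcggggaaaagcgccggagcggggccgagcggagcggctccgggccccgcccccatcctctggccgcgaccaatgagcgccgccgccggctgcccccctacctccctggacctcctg
The E-box CACGTG, which MYC binds together with MAX and which reads the same on both strands, was in 6 of the 40 member windows, those of BAX, BBC3, CCNG2, CDKN2C and GADD45B, and in 6.34% of all windows. A match of either kind describes the letters only.

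To ask which of these genes depend on PHF10, the 4 PHF10 knockdown libraries were set against their 2 controls. Of the 32 members tested, 3 rose and 0 fell: BTG2, TNFRSF10A and PLK3. Over all genes tested, 2.75% rose and 3.58% fell by the same edgeR quasi-likelihood test at a Benjamini-Hochberg adjusted p under 0.05. At an unadjusted p under 0.05, 7 members were higher and 1 was lower, and DESeq2 called 5 higher and 0 lower. The shares of all genes by these rules were not counted, so neither count shows an excess among the members. The members' median log2 fold change was 0.20 against 0.02 for all genes. Of the 32, 22 (68.8%) were above 0, where 52.1% of all genes were. All 4 knockdown libraries lay above both controls for 6 members and below both for 2 (CDKN2C and DDB2), where 13.4% and 13.7% of all genes did so.

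BTG2, an antiproliferative cofactor that recruits deadenylases to mRNA and is a classical p53 target, changed most. Its level was 103, 87.2, 78.9 and 65.8 CPM in PHF10 knockdown replicates 1 to 4 and 29.7 and 26.0 CPM in the controls. Every knockdown library stood above both controls, and replicate 1 was the highest. The log2 fold change was 1.59 (SE 0.18, edgeR adjusted p = 0.00277), a 3.01-fold difference. The log2 value was 1.66 within the part of experiment 1 with more reads outside genes and 1.48 within the other part. BTG2 was past the threshold under all 16 alternatives tried for this comparison, with values of 1.47 to 1.77. In bulk RNA, more cells with a transcript and more of it per cell cannot be told apart.

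TNFRSF10A, which encodes the death receptor DR4 for the ligand TRAIL, was at 47.3, 54.8, 42.2 and 42.8 CPM in the knockdown libraries and at 34.04 and 28.3 CPM in the controls, again without overlap. Its log2 fold change was 0.59 (SE 0.14, adjusted p = 0.0342). The call depended on the controls and on the fit. It was lost without control replicate 1 (0.72) and without control replicate 2 (0.46). With both controls and experiment 1 fitted alone, the value was 0.58 (SE 0.17, edgeR adjusted p = 0.157). The pooled fit, used for every PHF10 comparison unless stated, also draws its spread from experiment 2, whose libraries varied less. PLK3, a stress-activated Polo-like kinase, was at 25.9, 23.2, 22.01 and 21.2 CPM against 17.6 and 14.3 CPM. The difference was 0.54 on the log2 scale (SE 0.13, adjusted p = 0.0452). PLK3 was past the threshold under 6 of 16 alternatives, with values of 0.39 to 0.69. It missed the threshold with no filter on low counts and with replicate number as a block. The call was also lost when any library of experiment 1 other than knockdown replicate 4 was left out. With experiment 1 fitted alone, where 0.129% of all genes rose and 0.151% fell, 1 member rose, BTG2 (adjusted p = 0.0428).

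**Figure D1:**
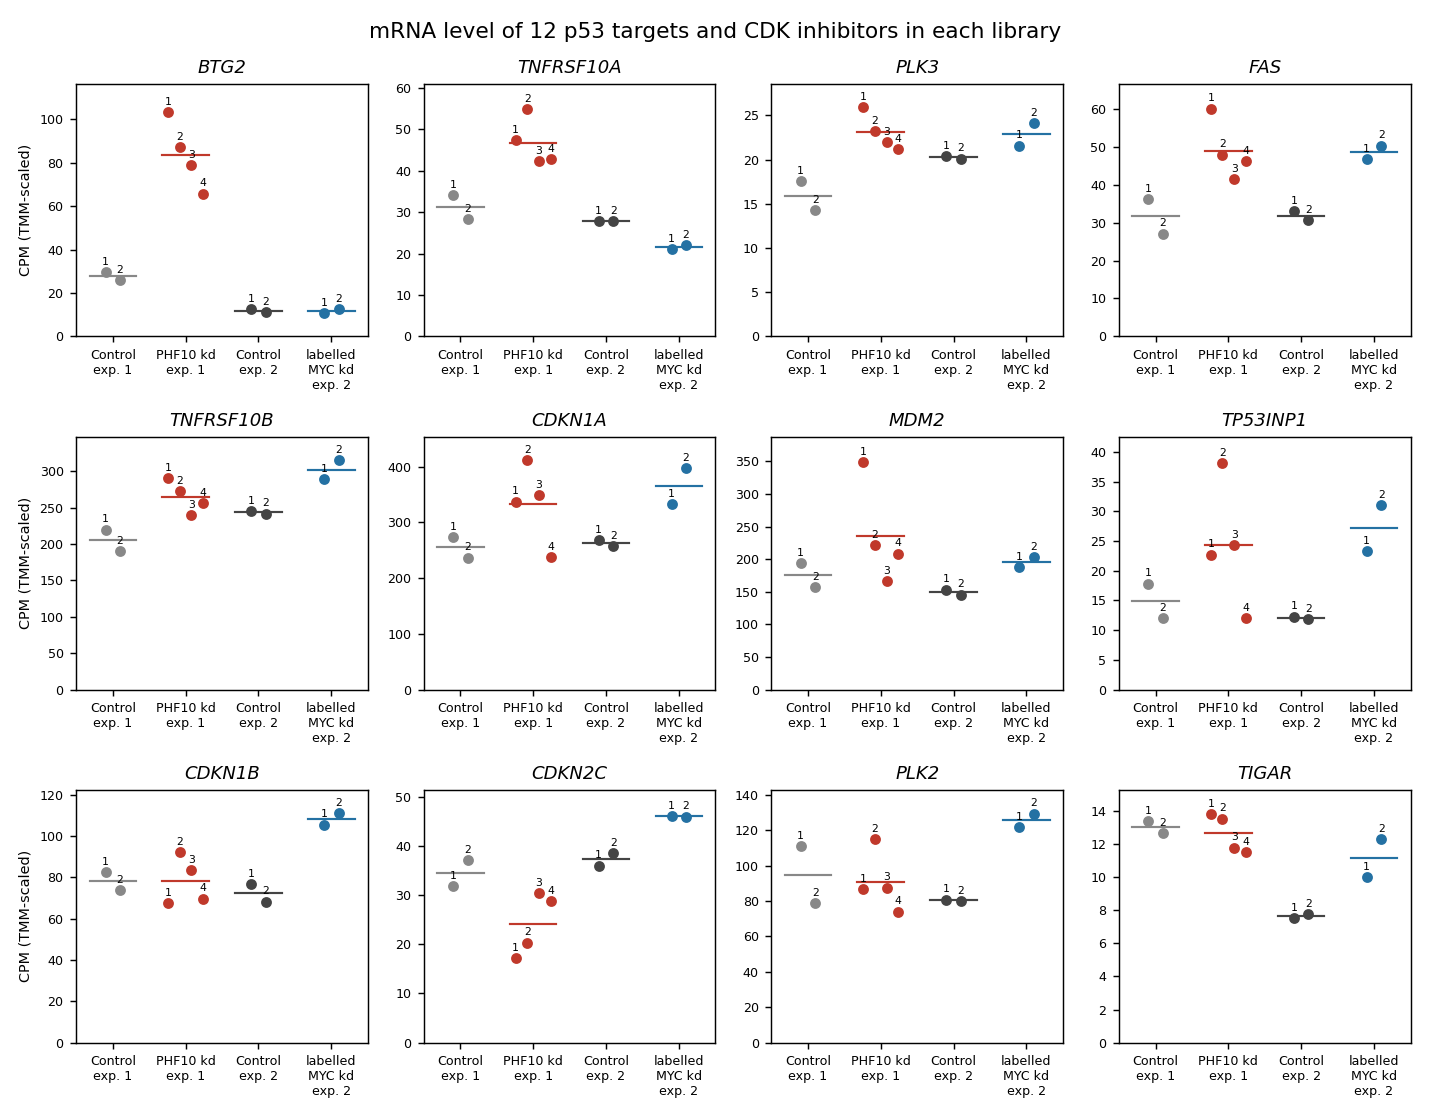
Levels of 12 members in CPM (linear axes from 0) by group; each point is a library with its replicate number, and each line is the mean of a group. BTG2 shows the 4 PHF10 knockdown libraries at 65.8 to 103 CPM, clear of the 2 controls of experiment 1, and all 4 libraries of experiment 2 at 10.8 to 12.7 CPM.

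Of the other death receptors, FAS lay close to the threshold and TNFRSF10B further from it, and neither passed. FAS, the receptor of FAS ligand, was at 60.1, 48.0, 41.6 and 46.3 CPM in the knockdown libraries and at 36.2 and 27.1 CPM in the controls. This gave a log2 fold change of 0.63 with an SE of 0.17 (adjusted p = 0.0563). All 4 knockdown libraries were above both controls. FAS passed the threshold under 7 of 16 alternatives. Its log2 value was 0.70 within the part of experiment 1 with fewer reads outside genes and 0.56 within the other part. TNFRSF10B, the receptor DR5, was at 290, 272, 239 and 256 CPM against 220 and 191 CPM, also without overlap. Its log2 fold change was 0.37 (SE 0.12, adjusted p = 0.109), and it passed the threshold under 2 of 16 alternatives.

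Among the CDK inhibitors none of the 5 tested passed. CDKN1A was at 337, 411, 348 and 237 CPM in the PHF10 knockdown libraries and at 273 and 237 CPM in the controls. Knockdown replicate 4 was level with the lower control, so the groups overlapped, and the log2 fold change was 0.39 (SE 0.20, adjusted p = 0.286). CDKN2C (p18) was the member with the lowest fold change: 17.2, 20.4, 30.4 and 28.8 CPM in the knockdown libraries against 31.9 and 37.2 CPM. All 4 libraries were below both controls, and the log2 fold change was -0.51 (SE 0.21, adjusted p = 0.182). The CDKN2C value was -0.79 within the part with more reads outside genes and -0.33 within the other part. Each part has 1 control, so no call is drawn from either. CDKN1B (p27) had a log2 fold change of 0.00 (SE 0.14). CDKN1C (p57) ranged from 17.2 to 54.6 CPM among the knockdown libraries against 15.8 and 24.1 CPM in the controls, so its log2 fold change of 0.86 had an SE of 0.41. CDKN2D (p19) was at 0.21 (SE 0.27). CDKN2B (p15) had 0 reads in all 6 libraries of experiment 1, which allows a level of up to 0.0216 CPM over them (3 reads, counting error only).

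The 3 genes that restrain p53 did not pass either. MDM2 was at 349, 222, 166 and 209 CPM in the knockdown libraries and at 194 and 157 CPM in the controls; replicate 1 was far above the rest and replicate 3 fell between the controls. Its log2 fold change was 0.43 (SE 0.25, adjusted p = 0.351). PPM1D, the phosphatase WIP1 that dephosphorylates p53, was at -0.00 (SE 0.19), and CCNG1, the cyclin G1 that acts with protein phosphatase 2A on MDM2, was at -0.13 (SE 0.24).

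Of the 7 arrest and stress genes, BTG2 and PLK3 rose. BTG1, the close relative of BTG2, was at 317, 177, 187 and 265 CPM against 180 and 143 CPM, with replicates 1 and 4 high and replicate 2 just below the upper control. Its log2 fold change was 0.55 (SE 0.23, adjusted p = 0.198). GADD45A and GADD45B, small stress proteins that activate the p38 kinase pathway, were at 0.36 (SE 0.31) and 0.24 (SE 0.28). CCNG2 was at -0.04 (SE 0.26) and the Polo-like kinase gene PLK2 at -0.06 (SE 0.18). The difference between BTG2 and BTG1, or between PLK3 and PLK2, was not tested.

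Of the 9 death genes tested, TNFRSF10A rose. The BH3-only gene BBC3 (PUMA) was at 0.21 (SE 0.26) and the pore-forming BAX at -0.05 (SE 0.10), with BAX between 136 and 155 CPM in all 6 libraries of experiment 1. TP53INP1, a stress protein that works in autophagy and death, was at 0.70 (SE 0.37) with a range of 12.1 to 38.1 CPM among the knockdown libraries. The nuclease gene AEN, whose element is printed above, was at -0.15 (SE 0.12), the AKT inhibitor gene PHLDA3 at 0.12 (SE 0.29) and the RNA-binding ZMAT3 at 0.18 (SE 0.11). SPATA18 had 1 read over the 4 knockdown libraries and 0 in the controls. MDM2, FAS and AEN, the members with a match in the windows searched, had log2 fold changes of both signs, and none of them passed. The search could miss elements of the other members, so no link between element and response is drawn.

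The 4 genes of DNA repair and nucleotide supply lay between -0.20 and 0.15. DDB2, which recognises ultraviolet lesions, was at 64.0 to 76.3 CPM in the knockdown libraries and at 85.03 and 79.4 CPM in the controls, a difference without overlap but small (-0.20, SE 0.11, adjusted p = 0.311). XPC was at 0.06 (SE 0.10), the translesion polymerase gene POLH at -0.17 (SE 0.13) and the ribonucleotide reductase subunit gene RRM2B at 0.15 (SE 0.24). The 4 metabolic genes lay between -0.04 (TIGAR, a fructose bisphosphatase) and 0.30 (FDXR, ferredoxin reductase), with SESN1 at 0.19 and TP53I3 at 0.26. None of these 8 passed.

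**Figure D2:**
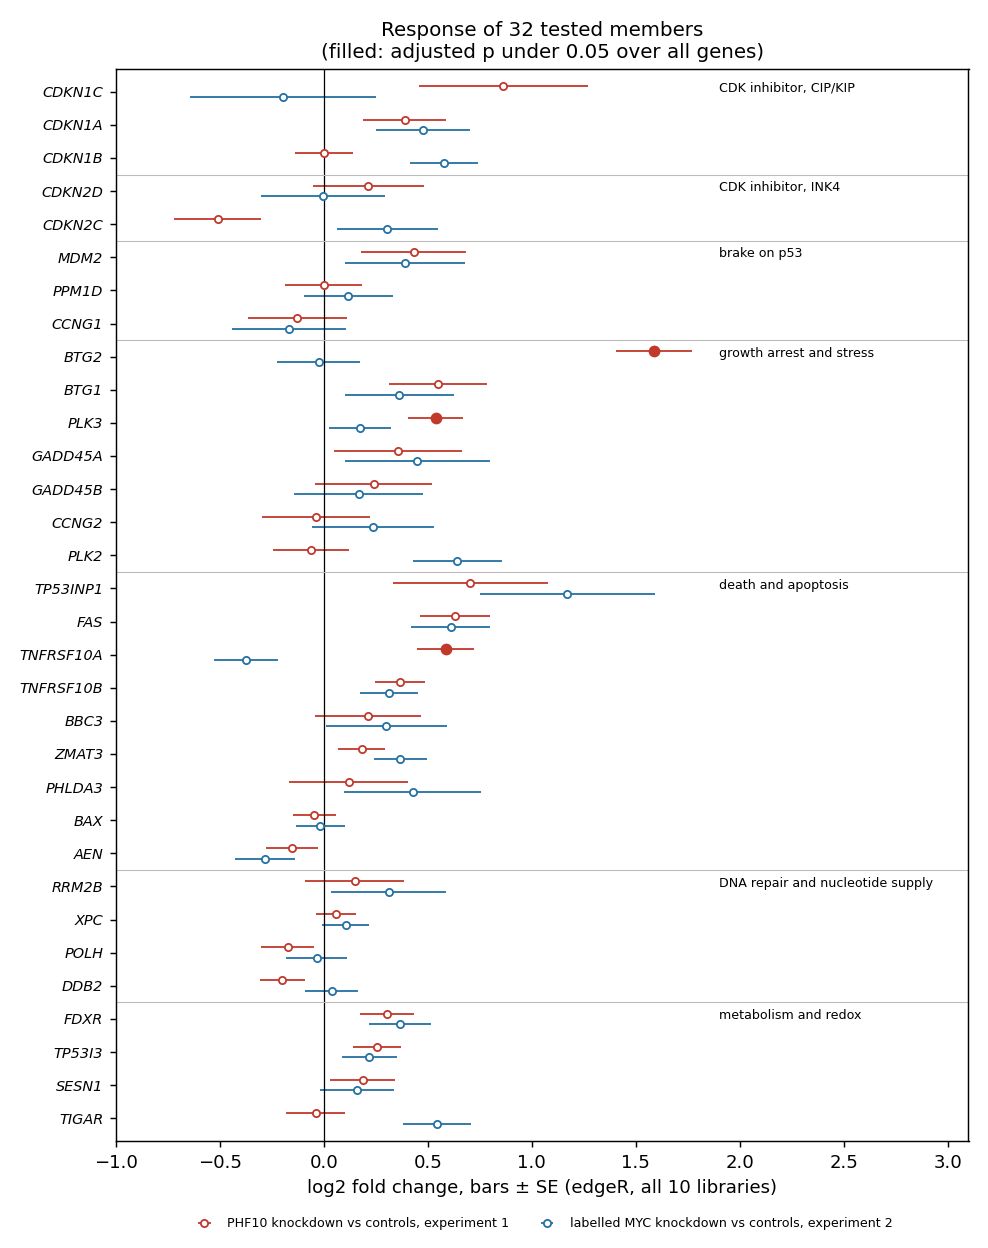
Log2 fold change of each tested member in the PHF10 comparison and in the comparison of the libraries labelled MYC knockdown; bars are standard errors from the edgeR fit of all 10 libraries, and filled points are past the threshold. BTG2 at 1.59, TNFRSF10A at 0.59 and PLK3 at 0.54 are the only filled points in the PHF10 comparison, and there are 0 in the other.

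The PHF10 knockdown libraries did not carry the members at the same level. The median SD of a member's log2 level over the 4 libraries was 0.268, against 0.297 over all genes tested. CDKN1C varied 3.17-fold between its highest and lowest library. BTG1, PHLDA3 and CCNG2 were highest in replicates 1 and 4, whereas CDKN1A, CDKN1C, TP53INP1, RRM2B and CDKN2D were highest in replicates 2 and 3. Interferon genes set replicates 1 and 2 apart, and 12 of 32 members were higher in both of these than in both of replicates 3 and 4. Among them were BTG2, TNFRSF10A, PLK3, FAS, TNFRSF10B and MDM2. CDKN2C and DDB2 were lower in both. The share of all genes with either order was not counted, so these counts show nothing particular to the members. The mean of the 32 members on the log2 CPM scale was 5.84 and 5.85 in replicates 1 and 2, 5.71 and 5.64 in replicates 3 and 4, and 5.594 and 5.495 in the controls.

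**Figure D3:**
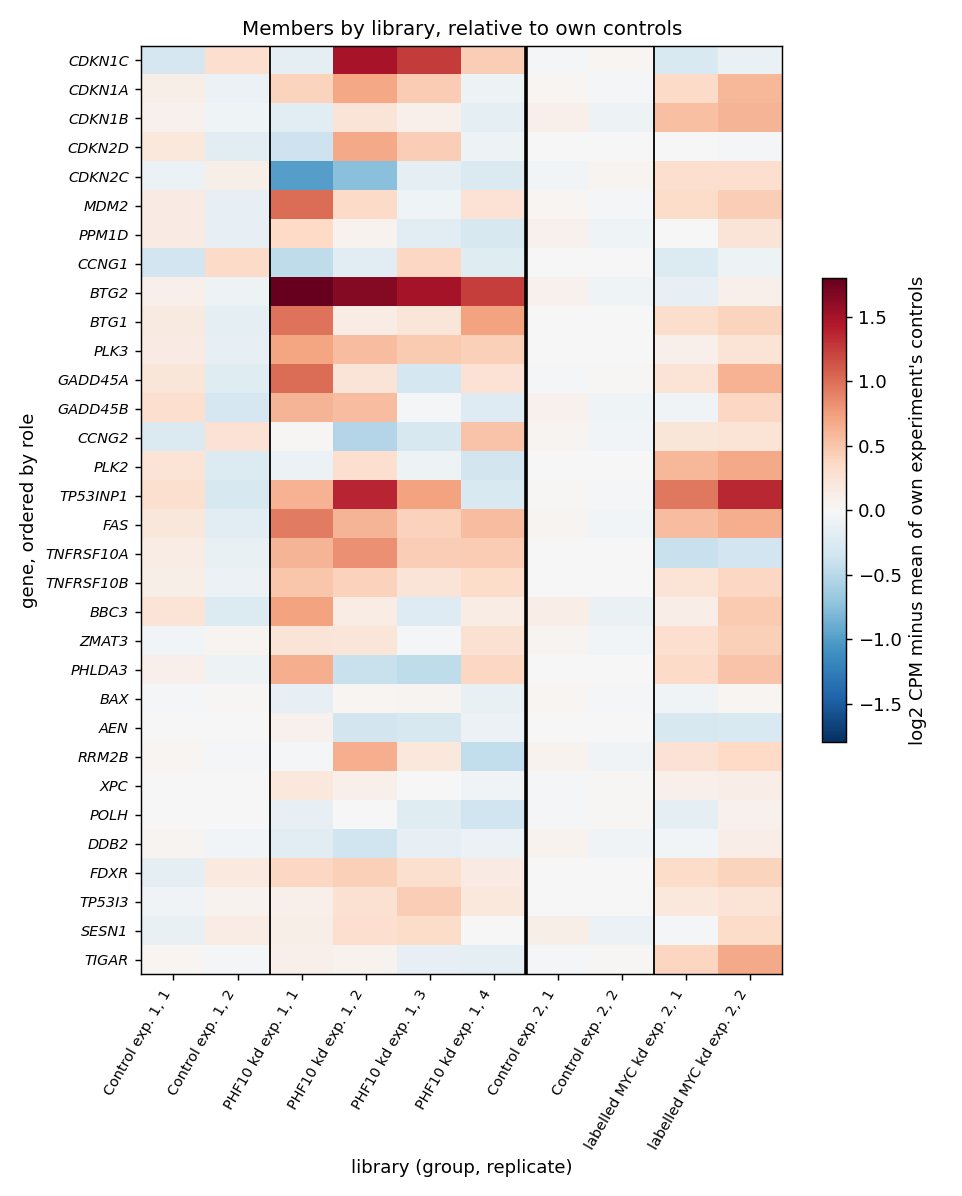
Log2 level of each tested member in each library, minus the mean of the controls of the same experiment, in order of role; colour gives the difference in log2 units. The BTG2 cells are high in all 4 PHF10 knockdown libraries, CDKN1A is above the control mean in replicates 1 to 3 but not 4, and CDKN2C is below it in all 4.

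The genes around this set, from lists of symbols, moved as follows in the PHF10 comparison. In the list of p53 family and regulator genes, TP73 (-1.02) and the checkpoint kinase gene CHEK2 (-0.76) fell. MDM4, which binds and inhibits p53, was at -0.27 (adjusted p = 0.289). Of 40 other direct p53 targets tested, 3 rose and 1 fell, where 2.75% of all genes rose and 3.58% fell, with a median of 0.13. Those that rose were the calcium channel gene ORAI3 (1.21), the growth factor gene TGFA (0.72) and the cytokine gene LIF (0.89), and the polymerase gene REV3L fell (-0.60). With experiment 1 fitted alone, ORAI3 was the only one of these 6 genes past the threshold (adjusted p = 0.0464), and the others had adjusted p of 0.101 (LIF), 0.107 (REV3L), 0.112 (TGFA), 0.122 (TP73) and 0.143 (CHEK2).

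Genes of the cell cycle lists also fell in the pooled fit. Of the 25 tested CDKs, cyclins and RB family genes, 0 rose and 8 fell (all genes: 2.75% and 3.58%), with a median of -0.48; among them were E2F1 (-1.20), LIN9 (-0.70), CCNE2 (-1.23) and RBL1 (-0.63). All 16 genes of the list lowered through p21 and the DREAM complex had a negative fold change, 7 of them fell and the median was -0.89. MYBL2, a DREAM target that drives mitotic genes, was at 23.8, 32.4, 60.1 and 38.2 CPM in the knockdown libraries against 107 and 112 CPM in the controls (-1.501, SE 0.27, adjusted p = 0.0142). In the fit of experiment 1 by itself, neither list had a gene past the threshold (0 of 25 and 0 of 16). The mean of the 16 genes on the log2 CPM scale was 4.98, 5.00, 5.90 and 5.59 in knockdown replicates 1 to 4 and 6.06 and 6.54 in the controls, so that within each group it was lower in the libraries with high interferon genes. The median log2 fold change of the 16 was -1.10 within the part with more reads outside genes, against 0.01 for all genes. Within the other part it was -0.75, against 0.02 for all genes.

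The libraries labelled MYC knockdown were compared with the controls of experiment 2 in the same way. In the fit of all 10 libraries, 0 of the 32 members rose and 0 fell by edgeR, where 0.282% and 0.211% of all genes did; DESeq2 called 1 higher and 0 lower. At an unadjusted p under 0.05, 8 members were higher and 1 lower. For this rule and for DESeq2 the shares of all genes were not counted. The median was 0.27 against -0.01 for all genes. Of the 32, 24 (75%) were above 0, where 48.9% of all genes were. Both libraries lay above both controls for 20 members and below both for 4, where 33.6% and 36% of all genes did so. The 2 experiments differ in spread: the biological coefficient of variation was 3.39% with experiment 2 fitted alone and 26.7% with experiment 1 alone, against 21.4% in the pooled fit. With experiment 2 fitted alone, on 2 residual degrees of freedom, 18 members rose and 4 fell, where 21.9% of all genes rose and 22.6% fell (44.5% in either direction). These counts rest on 2 libraries a group.

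The largest of the 18 by this fit was TP53INP1, at 23.4 and 31.1 CPM under the MYC label against 12.3 and 11.9 CPM in the controls (1.17, SE 0.12, edgeR adjusted p = 6.3e-06). CDKN1A was at 333 and 397 CPM against 268 and 257 CPM, without overlap. Its log2 fold change was 0.49 (SE 0.09, adjusted p = 0.00471) with experiment 2 alone and 0.48 (SE 0.23, adjusted p = 0.408) in the pooled fit. CDKN1B was at 106 and 111 CPM against 76.9 and 68.3 CPM (0.59, SE 0.05, adjusted p = 6.15e-13 with experiment 2 alone), while CDKN1C fell by 0.19 and CDKN2C rose by 0.32 in that fit. MDM2 was at 188 and 203 CPM against 153 and 146 CPM, a rise of 0.40 (adjusted p = 1.71e-10 with experiment 2 alone), and CCNG1 fell by 0.16.

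PLK2 had the smallest p of the members in experiment 2 alone, at 122 and 129 CPM against 80.8 and 80.0 CPM (0.65, SE 0.05, adjusted p = 4.6e-17). FAS was at 46.9 and 50.4 CPM against 33.1 and 30.6 CPM (0.62, SE 0.06, adjusted p = 2.71e-12). BTG1 rose by 0.37 (493 and 520 CPM against 395 and 393 CPM), and its paralog BTG2 did not pass, at 10.8 and 12.7 CPM against 12.5 and 11.3 CPM. TNFRSF10B rose by 0.32, at 289 and 315 CPM against 245 and 242 CPM. TNFRSF10A went the other way and fell by 0.36, at 21.1 and 21.98 CPM against 27.9 CPM in both controls. PHLDA3 rose by 0.43 (101 and 114 CPM against 80.2 and 79.4 CPM). ZMAT3 rose by 0.37 (53.5 and 58.5 CPM against 45.1 and 41.7 CPM), and RRM2B rose by 0.32 (78.7 and 84.2 CPM against 68.4 and 62.9 CPM). AEN fell by 0.27 (93.0 and 94.2 CPM against 114 and 113 CPM). The others that rose in this fit were TIGAR (0.55), FDXR (0.38), BBC3 (0.30), CCNG2 (0.25), TP53I3 (0.23) and PLK3 (0.18). By role, 2 of 3 CIP/KIP genes, 1 of 2 tested INK4 genes, 1 of 3 brakes on p53, 4 of 7 arrest genes, 6 of 9 tested death genes, 1 of 4 repair genes and 3 of 4 metabolic genes rose, where 21.9% of all genes did. Of the same groups 1 CIP/KIP gene, 1 brake and 2 death genes fell, where 22.6% of all genes did. Of the 5 members with a CACGTG motif in a window searched, BBC3, CCNG2 and CDKN2C rose in this fit and BAX and GADD45B did not pass.

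Around them, in experiment 2 alone, all 16 genes of the list lowered through p21 and the DREAM complex fell with a median of -0.41. Of the CDKs, cyclins and RB family, 5 rose and 17 fell of 25, and of the 40 other direct p53 targets 16 rose and 7 fell, beside 21.9% and 22.6% of all genes. The 7 targets and the 5 CDK and cyclin genes are near those shares. In the pooled fit 0 genes of these lists passed in this comparison.

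The test of the difference between both responses asks where the members responded unequally. BTG2 differed: its log2 fold change was 1.61 higher in the PHF10 comparison (SE 0.27, edgeR adjusted p = 0.0461), from 1.59 there and -0.03 in the labelled MYC comparison. This was the only one of 32 members, and 0.26% of all genes differed in this direction and 0.125% in the other. The call was close to the threshold: leaving out knockdown replicate 2 or 3 of PHF10 or any 1 of the other 6 libraries gave adjusted p between 0.0512 and 0.273, with differences of 1.5 to 1.73. TNFRSF10A, higher in one comparison and lower in the other, differed by 0.96 (SE 0.20) without passing (adjusted p = 0.0788). The median difference over the members was -0.05. FAS was at 0.63 and 0.61 in the 2 comparisons, TNFRSF10B at 0.37 and 0.31 and CDKN1A at 0.39 and 0.48; their differences of responses did not pass, which does not show that the responses are equal.

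The controls of both experiments held different levels of some members. This comparison shares its control libraries with both others, and experiment and any batch cannot be told apart. In experiment 2, 3 members were higher (BTG1 by 1.29, CCNG2 by 1.15 and GADD45B by 1.11) and 5 were lower, where 8.05% and 6.6% of all genes were (14.6% in either direction). The lower 5 were BTG2 (-1.22), DDB2 (-0.87), SESN1 (-0.86), TIGAR (-0.77) and FDXR (-0.65). The calls depended on single libraries: leaving out control replicate 1 of experiment 1 left 1 higher and 4 lower, and leaving out any one of the other 3 controls left 0 higher and 1 or 2 lower. Other genes also differed between the same controls. PHF10 was 3.25-fold higher in experiment 2 (adjusted p = 0.000121), 9 of 25 CDK, cyclin and RB family genes were higher and 0 lower, and the 31 interferon genes had a median of -3.83 with 1 lower. Of the tested markers, 3 of 7 for melanocytes were lower and 0 higher, and 2 of 3 for keratinocytes were higher. For endothelial cells 1 of 2 was higher, and for fibroblasts 1 of 3 was lower. The fold change was positive for 3 of the 7 melanocyte markers. Mean SOX10 was 806 CPM in the controls of experiment 1 and 828 CPM in those of experiment 2, and mean KRT5 was 0.161 and 1.91 CPM. The part of all these genes in the members' differences was not tested. DDB2 was past the threshold under all 10 alternatives tried for it. BTG2 was at 29.7 and 26.0 CPM in the controls of experiment 1 and at 12.5 and 11.3 CPM in those of experiment 2.

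Between genes, levels can be compared only per length, here as CPM per kilobase of merged exons (GENCODE release 29). In the controls of experiment 1 CDKN1A was the highest, at 83.5, followed by BAX (58.0), PHLDA3 (48.1) and CCNG1 (46.5). The lowest of the tested members were CCNG2 (2.54), TP53INP1 (2.63), GADD45B (3.00) and TIGAR (3.24). BTG2 stood at 10.1 in these controls, at 30.4 in the PHF10 knockdown and at 4.25 and 4.32 in the libraries labelled MYC knockdown and their controls. In experiment 2 BTG1 was near the top at 81.2 in the controls, close to CDKN1A at 86.0. Among the CDK inhibitors the order in the controls of experiment 1 was CDKN1A, CDKN1B (27.8), CDKN2C (10.4), CDKN2D (8.41) and CDKN1C (8.05). The last 2 do not differ beyond their spread, since their values overlapped over the 2 control libraries.

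**Figure D4:**
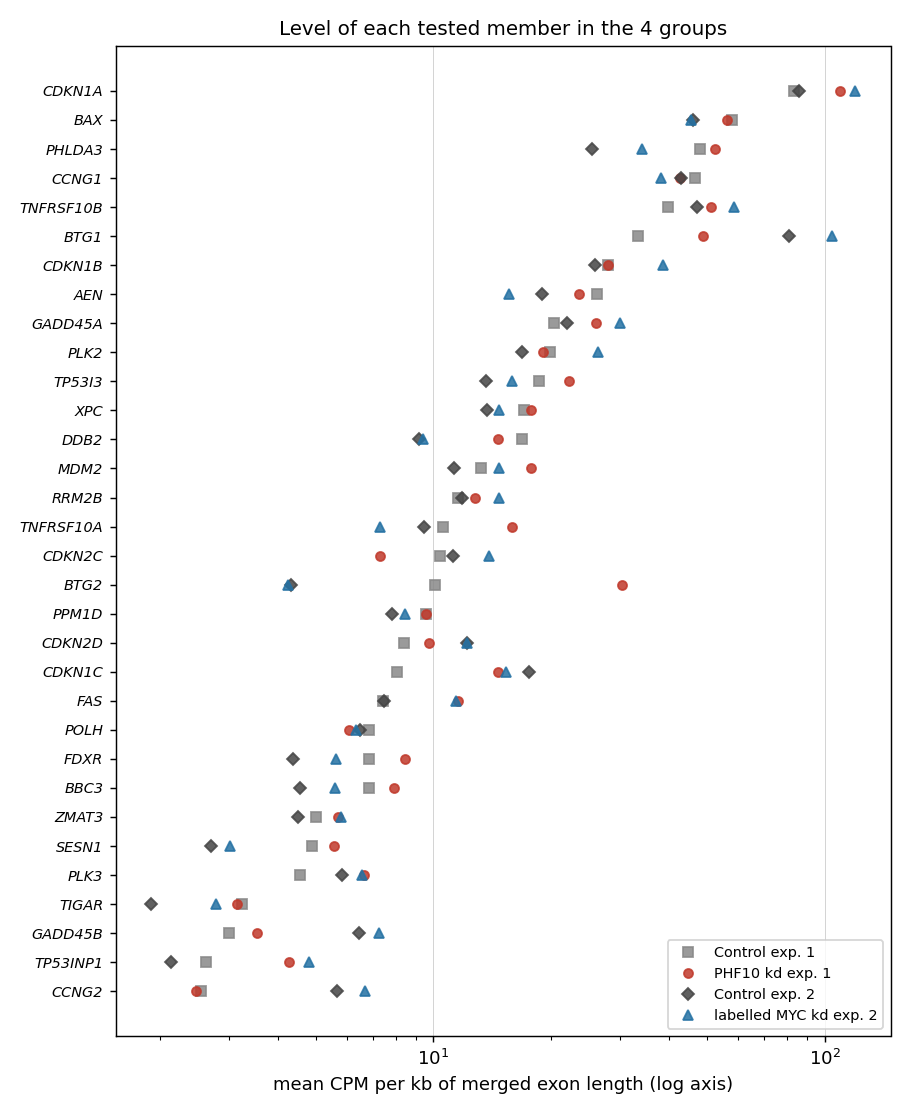
Mean level of each tested member per kilobase of merged exons (CPM per kb, log axis) in the 4 groups, ordered by the controls of experiment 1. CDKN1A leads at 83.5 and CCNG2 is last at 2.54; BTG2 spans from 4.25 in experiment 2 to 30.4 in the PHF10 knockdown.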

How the data were processed

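Per the labels' protocols, libraries of polyadenylated RNA keep the strand and were read from one end for 100 bases. STAR, cutadapt and GRCh38.p13 stand in the submitters' processing notes, with no version or annotation release. Whole-number counts of reads per gene were deposited by the authors. The column for the opposite strand was used, since the column for the same strand held 5.27% to 5.55% of gene reads. Lines that name no gene (19.1% to 23.6% of reads) were left out.

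Counts were tested with edgeR 4.0.16 in R 4.3.3: TMM factors, filterByExpr by group, a robust quasi-likelihood fit of 10 libraries as 4 group means (6 residual degrees of freedom), and p-values adjusted by Benjamini-Hochberg over 18450 genes, with a threshold of 0.05. CPM uses the TMM-scaled library sizes. The log2 values in pictures and means by library use a prior count of 2. The scripts were tested on simulated data in which both experiments share the spread of each gene. That test therefore does not cover the unequal spread of these data. Alternatives were other size factors, DESeq2 1.42.0, no filter, a stricter filter (1 CPM in 4 libraries), unstranded counts, a replicate block, a term for 2 parts of experiment 1 (cut at 11.9% of reads outside genes), each experiment alone and leaving out each library. Each part was also fitted together with the 4 libraries of experiment 2. A part holds 2 knockdown libraries and 1 control, so its p-values rest partly on the spread within experiment 2 (3 residual degrees of freedom). Leaving out 1 library of a pair leaves 1, assumed to vary like the others. Symbols matched 60295 identifiers. The members and lists were chosen with earlier results of these data known. Values in every library are given for CDKN1A, MDM2, members past a threshold in the pooled fit and up to 10 with the smallest p in each experiment alone; other members were given values after these were seen.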

Additional observations from a re-analysis of the deposited data

Results flagged for a closer look

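BTG2 was the only member whose responses differed between both knockdown comparisons by a test of the difference itself. The log2 fold change was 1.61 higher in the PHF10 comparison than in the libraries labelled MYC knockdown (SE 0.27, edgeR adjusted p = 0.0461), with all 4 PHF10 knockdown libraries above both of their controls and the 4 libraries of experiment 2 overlapping. The adjusted p ranged from 7.11e-07 to 0.273 over 17 alternatives and was past the threshold under 7. The level also differed between the controls (27.8 CPM in experiment 1 and 11.9 CPM in experiment 2 on average), so each response starts from its own level. The part of this gap in the difference was not tested. No member had a PHF10 knockdown library set apart from the other 3 by Dixon's test, and groups of 2 were not tested.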

How the results depend on the processing

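For the members named in a comparison, no value changed sign under the alternatives run: 311 values stayed on their side of the threshold, 48 lost it and 31 gained it. Of the members' counts and medians, 120 values stayed close to the first one and 45 moved, as follows. Members higher with PHF10 knockdown (3 at first) numbered 5 with DESeq2, 6 with no filter on low counts, 5 with a term for the 2 parts of experiment 1, 1 with experiment 1 alone, 1 within the part with more reads outside genes and 1 to 3 when a library was left out (1 without either control). Members lower (0 at first) numbered 1 with no filter, 1 with that term, 1 within that part and 1 with replicate number as a block. The median of 0.20 was 0.11 within the part with fewer reads outside genes. In the labelled MYC comparison (0 and 0 at first), 1 was higher with DESeq2, 2 with no filter, 1 with the term, and 18 higher and 4 lower with experiment 2 alone. Members that responded more to PHF10 knockdown (1 at first) numbered 2 with DESeq2, 3 with no filter, 2 with the term, 0 with the stricter filter, 0 with the replicate block and 0 to 1 when a library was left out; 1 responded less with the term. The median difference of -0.05 was 0.04 with the replicate block and -0.13 to 0.05 when a library was left out. Between the controls, 9 members were lower with DESeq2 and 9 with the term (5 at first), 1 to 4 when a library was left out, with 0 to 1 higher (3 at first), and the median of -0.16 was -0.10 with no filter and -0.22 to -0.04 when a library was left out.

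Whether replicate numbers pair the libraries could not be settled. The same-number correlations of deviations were 0.484 and -0.297 in experiment 1 and -0.031 in experiment 2. With 2 controls, the deviations of the controls are exact opposites, so each knockdown library gives 1 value with either sign. In experiment 1, knockdown replicates 1 and 2 correlated positively with control replicate 1, and replicates 3 and 4 with control replicate 2, as in the interferon split. The block gives knockdown replicates 3 and 4 a term each, since no control has their number. The PHF10 comparison with the block therefore rests on knockdown replicates 1 and 2 and both controls. In it, 2 members were higher (BTG2 and FAS) and CDKN2C was lower (-0.88, adjusted p = 0.0255) with PHF10 knockdown, and TNFRSF10A (adjusted p = 0.0643) and PLK3 (adjusted p = 0.0593) missed the threshold. Beyond this change in the libraries compared, the causes of these shifts were not tested. The coefficient of variation was 26.7% in experiment 1 and 3.39% in experiment 2, and each comparison has 2 controls.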
